A study of Mus musculus with 6 samples.

Results

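The phagocyte NADPH oxidase was examined through 6 genes that encode its subunits, Cybb, Cyba, Ncf1, Ncf4, Rac1 and Rac2, out of 19938 genes compared. They were taken by name from the rows of the array table that carry 1 gene symbol, and each of the 6 had 1 such row. RNA came from the bone marrow of mice in 2 groups, 3 p65 wild-type and 3 p65 knockout. RelA, or p65, is one of the NF-κB transcription factor proteins, and the title of the series places its deletion in the blood-forming compartment. The sort kept cells that carry c-kit and Sca-1 but neither lineage markers nor Flk2, a population rich in blood stem cells and early progenitors. Each mouse gave 1 array of log2 signals, and neither group is labelled with a treatment. No strain, age or promoter that drove the deletion is given in the sources used here.

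The oxidase is an enzyme of neutrophils, monocytes and macrophages that moves electrons from NADPH across a membrane onto oxygen and so makes superoxide, which these cells use to kill microbes. In resting cells its parts are kept apart. The membrane holds the heterodimer of the catalytic subunit gp91phox, or NOX2 (Cybb), and its partner p22phox (Cyba), while the cytosol holds further subunits that include the organizer p47phox (Ncf1) and the phosphoinositide-binding p40phox (Ncf4). On stimulation the cytosolic subunits and an active Rac GTPase join the heterodimer. Rac2 is the Rac protein found mainly in blood cells, and Rac1 is present in nearly all cells. Inherited loss of one of the dedicated subunits causes chronic granulomatous disease.

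The dedicated subunits had higher signals in the p65 knockout, while the Rac GTPases differed little. Cybb, Cyba, Ncf1 and Ncf4 had log2 fold changes, knockout over wild-type, of 0.70 to 1.50, and for each of these 4 genes all 3 knockout arrays lay above all 3 wild-type arrays. Of all genes, 19.2% showed the same separation in that direction. Only Ncf1 rose past the threshold, an adjusted p under 0.05 in limma with Benjamini-Hochberg adjustment over all genes, which 0.687% of all genes passed in that direction and 0.818% in either direction. Rac1 (0.22) and Rac2 (0.14) had overlapping groups. The median log2 fold change of the 6 genes was 0.86, against -0.04 over all 19938 genes.

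The promoter windows of 3 of the 6 genes were matched in the RefSeq table of the mouse assembly GRCm38.p6, those of Cybb, Cyba and Ncf1. They are shown because these genes have higher knockout signals and because p65 and the factors of the oxidase genes listed further on act through short DNA elements. Each line gives the 250 bases before the start site, 5′ to 3′ on the gene's own strand, which is the minus strand for all 3 genes. The windows are chrX:9469325-9469574 for Cybb, chr8:122432941-122433190 for Cyba and chr5:134229626-134229875 for Ncf1. The Cybb window lies inside the annotated span of the gene, chrX:9435252-9487766, so it precedes a start site within that span. No other Cybb window was searched. Capitals mark matches to the interferon response element GAAANNGAAA, to which interferon regulatory factors bind, on either strand.
Cybb: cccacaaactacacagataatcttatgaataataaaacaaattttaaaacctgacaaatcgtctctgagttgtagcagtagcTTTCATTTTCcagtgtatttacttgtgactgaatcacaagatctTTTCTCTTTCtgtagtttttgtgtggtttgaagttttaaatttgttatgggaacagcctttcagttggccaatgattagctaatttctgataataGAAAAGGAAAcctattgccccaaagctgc
Cyba: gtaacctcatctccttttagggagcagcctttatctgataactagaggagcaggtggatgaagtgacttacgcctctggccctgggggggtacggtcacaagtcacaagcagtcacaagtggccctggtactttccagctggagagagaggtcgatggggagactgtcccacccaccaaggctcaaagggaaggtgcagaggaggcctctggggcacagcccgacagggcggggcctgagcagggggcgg
Ncf1: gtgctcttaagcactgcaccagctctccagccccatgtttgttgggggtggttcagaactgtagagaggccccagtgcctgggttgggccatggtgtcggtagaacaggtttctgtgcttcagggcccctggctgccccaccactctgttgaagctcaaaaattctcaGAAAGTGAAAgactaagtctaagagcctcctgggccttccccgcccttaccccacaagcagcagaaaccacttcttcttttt
The search covered 300 bases of each window, from 250 before to 50 after the start site, on both strands. Cybb held 3 matches to the interferon response element, beginning 168, 124 and 29 bases before the start site, and Ncf1 held 1, beginning 82 bases before it. Cyba held none. Of 32851 windows of this length in the table, 3.44% held at least 1 match. A loose NF-κB pattern, GGGNNNNNCC, was found in all 3 windows and in 50.8% of all windows. In Ncf1 one of its matches, GGGCCTTCCC beginning 51 bases before the start site, fits the pattern on both strands, and it overlaps another match, as 2 matches in Cyba do. The core of the binding site of PU.1, GAGGAA, was found in Cybb only, as TTCCTC on the opposite strand beginning at base 10 after the start site, and in 28.3% of all windows. No 2 of these patterns overlapped each other in the 3 windows. A match describes the letters of the window and shows no binding.

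The arrays differed in ways that bear on every gene. Wild-type replicate 1 stood apart, with an SD of 2.03 over all rows against 2.22 to 2.29 in the others, and correlated with them at r = 0.924 to 0.943. The knockout arrays had slightly wider signals (SD 2.26 to 2.29) than the wild-type ones (2.03 to 2.22), so that range and genotype cannot be told apart. Fold changes also varied with signal, the median over genes running from -0.25 in a dim bin to 0.33 in the brightest of 10 bins. Rela itself averaged 7.77 in wild-type arrays (SD 0.22, n = 3) and 7.39 in knockout arrays (SD 0.08, n = 3), a log2 fold change of -0.39 that did not pass (limma adjusted p = 0.209). It passed as lower under cyclic loess normalization (-0.61, limma adjusted p = 0.0374), with array weights (-0.49, 0.0292) and without wild-type replicate 1 (-0.51, 0.04), and was -0.24 with centred arrays. A probe outside the deleted part of the gene need not follow the deletion, and where the Rela probes lie was not tested. The number of arrays limits the precision, and the exact permutation test over 3 against 3 arrays cannot give a two-sided p below 0.1.

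**Figure D1:**
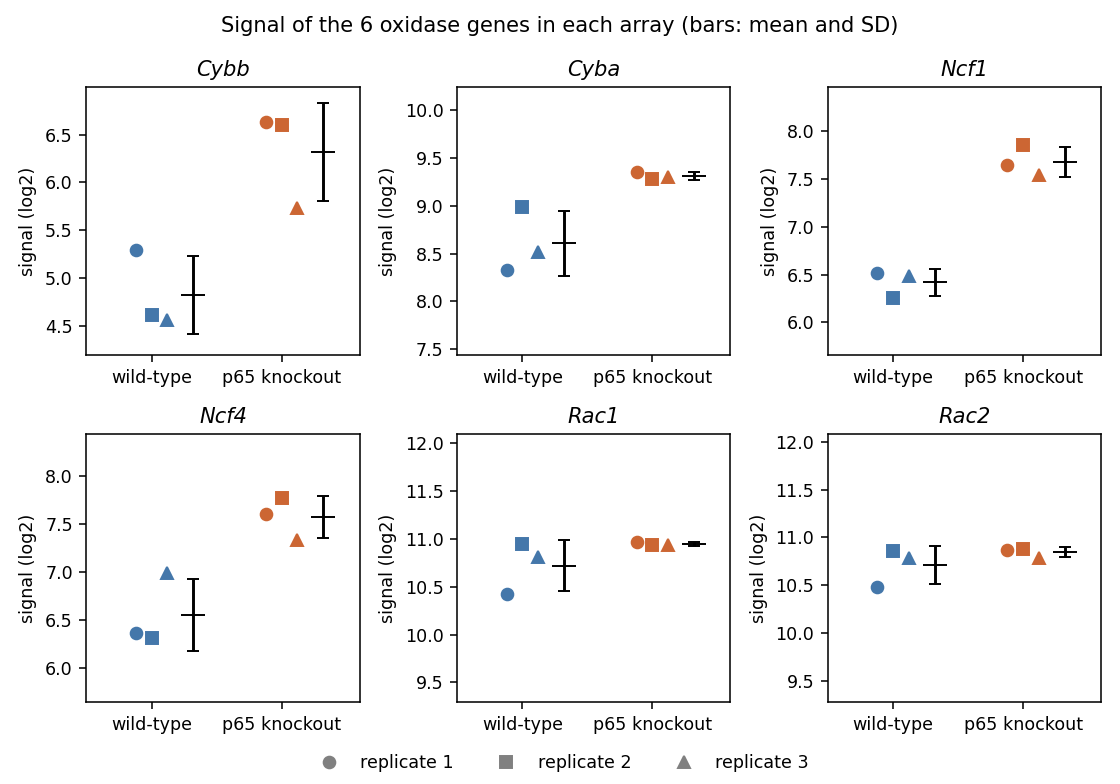
Log2 signal of each oxidase gene in each of the 6 arrays (points, shaped by replicate number) with the group mean and SD (black bars), all panels spanning the same number of log2 units. The knockout points of Cybb, Cyba, Ncf1 and Ncf4 lie above all their wild-type points, while those of Rac1 and Rac2 overlap.

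The catalytic subunit gene Cybb had log2 signals of 5.29, 4.61 and 4.56 in wild-type replicates 1, 2 and 3 and of 6.63, 6.60 and 5.73 in the knockouts. The groups did not overlap, and the lowest knockout array, replicate 3, lay 0.44 above the highest wild-type array, replicate 1. The wild-type mean was 4.82 ± 0.41 and the knockout mean 6.32 ± 0.51 (SD, n = 3 each), the widest difference of the 6 genes. The log2 fold change was 1.50 (SE 0.29, 95% interval 0.83 to 2.17) and missed the threshold (limma adjusted p = 0.0636). With the replicate number as a block, a pairing that rests on weak correlations between arrays and on no label, it passed (limma adjusted p = 0.00971), as did 1.41% of all genes in that direction. Without wild-type replicate 1 it passed too, at 1.73 (limma adjusted p = 0.0246), as did 3.28% of all genes in that direction. All 3 wild-type values lay below the median of all genes in their arrays (6.07 to 6.09), as did knockout replicate 3 (5.73, median 5.99). Detection calls were not used here, so the size of the Cybb difference is uncertain.

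Cyba encodes p22phox, which stabilizes the catalytic subunit in the membrane and serves other NADPH oxidases as well. Wild-type replicates 1, 2 and 3 had log2 signals of 8.33, 8.99 and 8.52, and knockout replicates 1, 2 and 3 of 9.35, 9.28 and 9.30. The knockout arrays lay close together, and the nearest wild-type array, replicate 2, lay 0.29 below them. The log2 fold change was 0.70 (SE 0.18, 95% interval 0.27 to 1.12) and did not pass (limma adjusted p = 0.111). Quantile normalization gave 0.44 and cyclic loess 0.38. Among genes of like signal the median log2 fold change was 0.33, so Cyba lay closer to its surroundings than did Cybb, whose bin had a median of -0.18.

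Ncf1 encodes p47phox, the subunit that is phosphorylated on activation and carries the cytosolic complex to the membrane. In the same order of replicates, its log2 signals were 6.52, 6.26 and 6.49 for wild-type and 7.65, 7.86 and 7.54 for knockout mice. The arrays of each group lay close together and the groups stood 1.02 apart, the widest gap of the 6 genes. Ncf1 rose by 1.26 on the log2 scale (SE 0.15, 95% interval 0.91 to 1.60), or 2.39-fold, with a limma adjusted p of 0.0149 and higher values in 3 of 3 knockout arrays. Its median for genes of like signal was 0.18. It passed in 11 of 15 alternative settings and stayed between 1.12 and 1.40 in all 15. Ncf1 kept 1.26 by design with the replicate block, without dim genes, and with the intensity trend, robust variance or the mean over rows. It did not pass without wild-type replicate 3 (1.29, limma adjusted p = 0.0662), knockout replicate 1 (1.27, 0.131), knockout replicate 2 (1.17, 0.13) or knockout replicate 3 (1.33, 0.077), fits in which only 21 to 29 genes of all passed.

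Ncf4 encodes p40phox, which binds a lipid of the phagosome membrane. The wild-type signals were 6.36, 6.31 and 6.99 on the log2 scale, the knockout signals 7.61, 7.77 and 7.33. Wild-type replicate 3 was the highest of its group and lay 0.34 below knockout replicate 3, the lowest of the other. The log2 fold change was 1.02 (SE 0.22, 95% interval 0.52 to 1.51) and missed the threshold (limma adjusted p = 0.0767). It passed with dim genes left out (limma adjusted p = 0.0357, with 5.27% of the genes left called) and with array weights (0.87, limma adjusted p = 0.0278, with 8.02% of all genes called).

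For Rac1 the wild-type log2 signals were 10.42, 10.95 and 10.81, and the knockout signals 10.97, 10.94 and 10.94. For Rac2 they were 10.48, 10.86 and 10.79, against 10.87, 10.88 and 10.79. In both genes wild-type replicate 1 was the lowest array, and the highest wild-type array, replicate 2, lay above the lowest knockout array. The log2 fold change of Rac1 was 0.22 (95% interval -0.16 to 0.60, limma adjusted p = 0.415). That of Rac2 was 0.14 (95% interval -0.20 to 0.48, limma adjusted p = 0.557). Without wild-type replicate 1 they were 0.07 and 0.02. Rac1 turned to -0.0048 under cyclic loess normalization, and Rac2 to -0.09 there and to -0.07 under quantile normalization. Both lay below the median of genes of like signal (0.33). The intervals leave room for rises of up to 0.60 and 0.48 on the log2 scale, and both overlap that of Cyba (0.27 to 1.12).

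**Figure D2:**
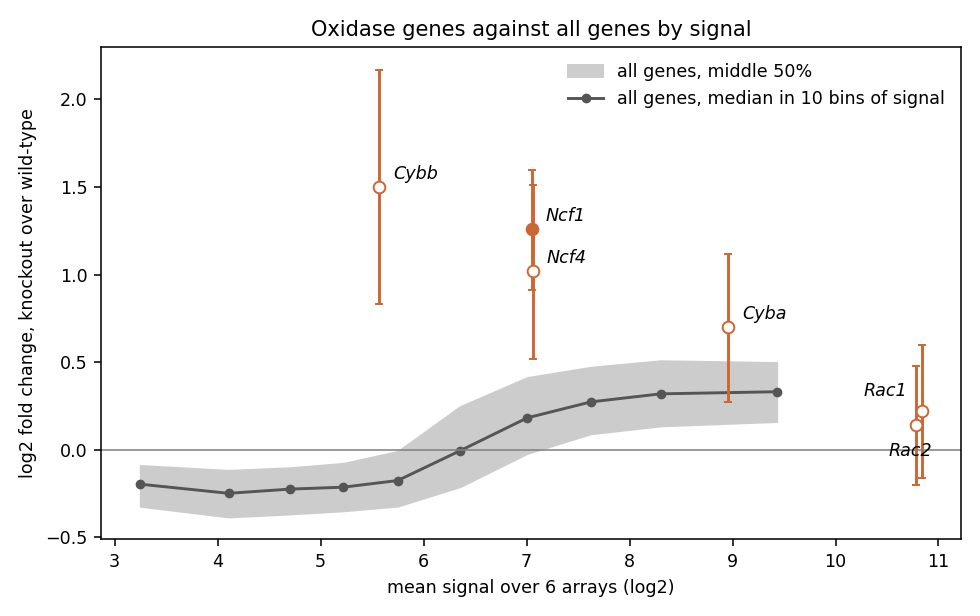
Log2 fold change, knockout over wild-type, against mean log2 signal over the 6 arrays, for the oxidase genes (points with 95% intervals, filled where the limma adjusted p was under 0.05) and for all 19938 genes in 10 bins of signal (line for the median, band for the middle 50%). Cybb, Ncf1 and Ncf4 lie above the band with their whole intervals, and Cyba's interval reaches into it. The band is drawn to a signal of 9.43, so Rac1 (10.84) and Rac2 (10.78) lie to the right of its end. Both are below the median of the brightest bin (0.33), and Rac2 is just under that bin's middle 50%.

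Differences between members within an array cancel any shift common to that array. The signal of Cybb minus that of Cyba was -3.04, -4.38 and -3.95 in wild-type arrays, against -2.72, -2.68 and -3.57 in knockout arrays. These groups overlapped, with a change of 0.80 and a two-sided exact permutation p of 0.2 (0.2 adjusted over 2 differences). Rac2 minus Rac1 was 0.06, -0.09 and -0.02 in wild-type arrays, against -0.10, -0.05 and -0.14, a change of -0.08 (exact permutation p = 0.2, adjusted p = 0.2). Between same-numbered arrays, a comparison added after the values had been seen, Cybb minus Cyba was higher in the knockout in 3 of 3 pairs, by 0.31, 1.70 and 0.38. Its exact sign-change p was 0.25, the smallest that 3 pairs can give. Rac2 minus Rac1 was lower in 2 of 3 pairs (exact p = 0.5). Neither way of testing settles a change in the balance within the membrane heterodimer or between the GTPases with 3 arrays a group. Whether the probes of Rac1 and Rac2, whose proteins are closely related, pick up each other's transcripts was not tested.

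The 4 dedicated subunits were also set against each GTPase within arrays, 8 differences chosen after the values had been seen. Ncf1 minus Rac2 was -3.96, -4.59 and -4.30 in wild-type arrays, against -3.22, -3.02 and -3.26, a change of 1.12. In 7 of the 8 differences the groups did not overlap, with changes of 0.48 (Cyba minus Rac1) to 1.36 (Cybb minus Rac2), each at the smallest two-sided exact permutation p of 0.1 (0.114 adjusted over the 8). In Cybb minus Rac1 (change 1.28, exact permutation p = 0.2) wild-type replicate 1, at -5.12, lay above knockout replicate 3, at -5.21. All 8 changes kept their sign in the 10 alternatives run for them. The pairing and the mean over rows could not move them, since pairing keeps the mean and each gene has 1 row. All 8 were positive in each of the 3 same-numbered pairs (exact sign-change p = 0.25). The 8 reuse the same 4 subunits and the same GTPases, so they restate the fold changes of these genes and are not independent. Among single genes 19.2% had every knockout array above every wild-type array. How often differences between other genes separate in this way was not tested.

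The members also differed in their patterns over the 6 arrays. Likeness was measured as the Euclidean distance between log2 signals over the 6 arrays after each gene was centred on its own mean, so that a small distance means nearly equal rises and falls. Rac1 and Rac2 were the nearest pair (0.163), followed by Ncf1 and Ncf4 (0.571), while the partners Cybb and Cyba were 1.55 apart. These distances include the group difference and the size of each gene's changes, so they do not show the order of arrays within a group. Among all genes other than predicted, receptor-cluster and small RNA genes, the nearest to Cybb were Slpi (0.474), which encodes a leukocyte protease inhibitor, Clec5a (0.48), a myeloid C-type lectin receptor gene, and Cd53 (0.574), a leukocyte tetraspanin gene. Their log2 fold changes were 1.49, 1.84 and 1.51; nearness over all 6 arrays includes the group difference, so values like that of Cybb follow from the choice and are given with no test. The nearest to Rac2 were P2ry2, a nucleotide receptor gene (0.0483), Sdc3, a syndecan gene (0.0497), and Cbx2, a Polycomb gene (0.0573), whose log2 fold changes of 0.11 to 0.16 likewise follow from the choice. A gene that varies little has many near neighbours, so distances around Cybb and around Rac2 are not on a par.

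The wider pathway was followed in 7 lists of 78 genes, 72 of them measured, of which 3 rose, 0 fell and 69 did not pass limma. Of all genes, 0.687% passed as higher and 0.818% in either direction. Without adjustment, 13 of the 72 were higher and 3 lower at p under 0.05, where 13.8% and 7.76% of all genes reached that level. Of the other genes that serve the phagocyte enzyme, Hvcn1 encodes the proton channel that offsets the charge moved by the oxidase, and Cybc1 encodes a chaperone needed for the heterodimer. The wild-type arrays of Hvcn1 averaged 5.12 ± 0.36 and the knockout arrays 6.34 ± 0.36 (SD, n = 3 each), with no overlap. Its log2 fold change of 1.22 missed the threshold (limma adjusted p = 0.0653) and passed with the replicate block (limma adjusted p = 0.0433), without wild-type replicate 1 (1.36, limma adjusted p = 0.0315), under each of the 3 other normalizations (0.0408 to 0.0463) and with array weights (0.0113). For Cybc1 the log2 difference was 0.36, with a limma adjusted p of 0.177.

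The oxidases of other tissues and their organizers gave no call. All 9 genes of this list had negative log2 fold changes, from -0.63 for Nox3, the oxidase of the inner ear, to -0.01 for Duox2, with a median of -0.27. The directions depended on the scaling, with 6 of the 9 negative under quantile normalization or with centred arrays and 7 under cyclic loess normalization or without wild-type replicate 1. Nox3 (limma adjusted p = 0.155) and Duox1, an epithelial oxidase (-0.29, limma adjusted p = 0.258), had the smallest p in the list, where 1 gene had an unadjusted limma p under 0.05. Their wild-type signals of 4.62 and 4.65 lay in a range where the median of all genes was also negative.

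The list of exchange factors that load Rac with GTP, which also holds their partners Elmo1 and Elmo2, had 13 genes. None of the 13 passed and 2 had an unadjusted limma p under 0.05, Prex2 at -0.59 (limma adjusted p = 0.112) and Trio at 0.43 (0.193). Prex2 passed as lower without wild-type replicate 1 (-0.65, limma adjusted p = 0.0493) and with array weights (-0.60, limma adjusted p = 0.0239), and was -0.37 under quantile or cyclic loess normalization. Trio was 0.26 with the mean over rows. Of 8 measured inhibitors and GTPase-activating proteins none passed and 1 reached an unadjusted p under 0.05, Racgap1, which also works in cytokinesis, at 0.78 (limma adjusted p = 0.11; 0.0341 with array weights). Chn2, a chimaerin gene, followed at 0.22 (0.402) and was 0.09 to 0.36 over the alternatives. The median of each of these lists was 0.09; under cyclic loess normalization that of the exchange factors was -0.06 and that of the inhibitors -0.12. Of 18 measured kinases, lipid enzymes and adaptors upstream of the oxidase none passed and 1 had an unadjusted limma p under 0.05. The log2 difference was 0.38 for Rap1a, a GTPase that copurifies with the heterodimer (limma adjusted p = 0.189), and 0.56 for the tyrosine kinase gene Btk (0.251). Rap1a was 0.11 under quantile or cyclic loess normalization. Btk was 0.24 under cyclic loess normalization and 0.24 without wild-type replicate 1.

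Calls in the wider pathway came from receptors and transcription factors. Of 13 measured receptors that trigger the oxidase 1 rose, Fcgr3, which encodes a low-affinity receptor for IgG, from 6.18 ± 0.64 to 8.03 ± 0.31 (SD, n = 3 each), a log2 rise of 1.85 (SE 0.31, limma adjusted p = 0.0476). It did not pass under quantile (limma adjusted p = 0.0842) or cyclic loess normalization (0.0714). Of 9 transcription factors known for the oxidase genes 2 rose and 7 did not pass. Irf8, which encodes an interferon regulatory factor of the monocyte lineage, went from 6.35 ± 0.33 to 8.01 ± 0.31 (SD, n = 3 each), a rise of 1.67 (SE 0.22, limma adjusted p = 0.0213). Cebpe, which encodes a C/EBP factor of late granulocyte precursors, rose by 1.14 (SE 0.19, limma adjusted p = 0.0474), and this was lost under quantile (0.0659) and cyclic loess normalization (0.0721). Spi1, the PU.1 gene, singled out after its values were seen, had a log2 fold change of 0.84 with no overlap between groups but did not pass (limma adjusted p = 0.102; 0.0387 with array weights). It was 0.53 under cyclic loess normalization. The 3 calls of the wider pathway were all lost when any array other than wild-type replicate 1 was left out, with log2 fold changes of 1.51 to 1.96 for Fcgr3, 1.56 to 1.84 for Irf8 and 0.97 to 1.25 for Cebpe. Without wild-type replicate 1, 7 genes of the 7 lists passed, where 4.66% of all genes did.

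**Figure D3:**
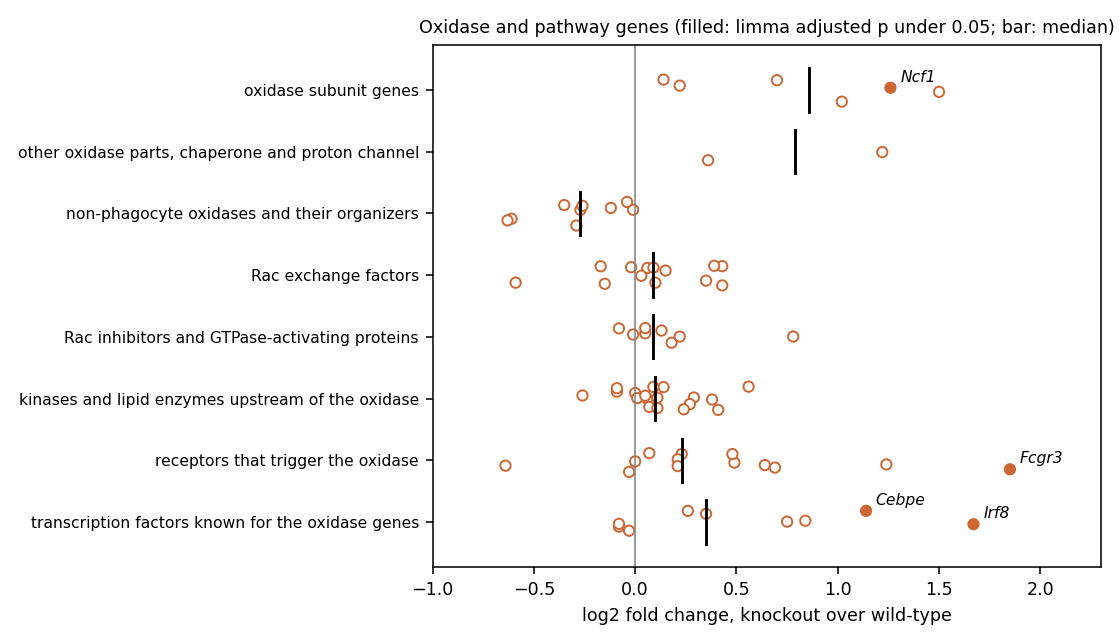
Log2 fold changes, knockout over wild-type, of the oxidase subunit genes and of the measured genes of the 7 other pathway lists (1 point per gene, spread vertically at random, filled where the limma adjusted p was under 0.05, black bar for the list's median). Ncf1, Fcgr3, Irf8 and Cebpe are the 4 filled points, and the 9 genes of the list of non-phagocyte oxidases lie below 0 as deposited, but only 6 do with centred or quantile-normalized arrays.

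Markers of other cell types were read beside these values, because in sorted bulk cells more cells of a type and more RNA per cell cannot be told apart. All 10 markers of myeloid progenitors passed as higher, as did 0.687% of all genes. Of the 10, 3 are also in the pathway lists, Irf8, Cebpe and Fcgr3. The signals of all 10, summed on the linear scale, ran from 3560 to 4336 in wild-type and from 14790 to 17270 in knockout. This list was drawn up with earlier results of these data known, so its count is not independent evidence. The 10 also passed without wild-type replicate 1, while 5 to 7 did when another array was left out. Under quantile normalization 8 of the 10 passed, and under cyclic loess normalization 8. Of 19 markers of macrophages and mature granulocytes 0 passed limma, 2 were higher and 2 lower at an unadjusted p under 0.05, and the summed signal was 954 to 1358 in wild-type, against 1305 to 1326 in knockout. The higher ones were Cd68, a lysosomal protein gene of phagocytes (1.22, limma adjusted p = 0.0622), and Cxcr2, a chemokine receptor gene (1.14, limma adjusted p = 0.0531), and both passed with the replicate block or without wild-type replicate 1. The lower ones were S100a9, a calcium-binding protein gene of neutrophils (-0.71, limma adjusted p = 0.227), and Mmp9, a gelatinase gene (-0.39, limma adjusted p = 0.163). The median of the 19 was -0.27, with 15 negative as deposited and 11 with centred arrays. Without dim genes 7 of the 19 were left, with a median of 0.09 and 3 negative. Of these 7, 2 passed as higher, where 5.27% of all genes left passed in either direction. The median of all genes left was 0.24. Adgre1, a macrophage surface marker, went from 3.72 in wild-type to 3.68 in knockout, and Ly6g, a marker of neutrophils, from 4.05 to 3.58. Neither passed (limma adjusted p = 0.929 and 0.377). Both were dim, among genes of like signal with median log2 fold changes of -0.20 and -0.25, so they say little about mature cells. Of 13 measured B, T and NK cell markers 1 rose, the cytotoxic granule gene Nkg7 (1.09, limma adjusted p = 0.0483), and the other 12 did not pass. The list's median was -0.31, with 9 of 13 negative and 4 lower at an unadjusted p under 0.05. Without dim genes 3 of the 13 were left, 0 of them negative, with a median of 0.35. The list's summed signal was 1778 to 2178 in wild-type, against 3167 to 3455 in knockout, and 672 to 965 against 743 to 944 without Nkg7. Nkg7 did not pass under quantile normalization (limma adjusted p = 0.0532), with centred arrays (0.0529), with robust variance (0.0515) or when any array but wild-type replicate 1 was left out (0.0517 to 0.263). Erythroid (4 measured), megakaryocyte (5) and stroma and endothelium markers (10) gave 0 calls in limma, with 3, 1 and 1 at an unadjusted p under 0.05. Of 10 measured sort and stem cell markers 1 fell, the stem cell transcription factor gene Hlf, by 1.27 on the log2 scale (limma adjusted p = 0.0485). Hlf did not pass with centred arrays (limma adjusted p = 0.0707), with robust variance (0.0515) or when any array but wild-type replicate 1 was left out (0.0864 to 0.271). Without wild-type replicate 1, where 4.66% of all genes passed, 6 of the 10 were lower and 1 higher. Of the genes for the sorted proteins, Kit had high signals in both groups, at 10.43 in wild-type and 10.12 in knockout. Flt3, which encodes Flk2, the protein sorted against, averaged 7.61 and 7.67, and Ly6a, the Sca-1 gene, was not measured. Cd34, which was not part of the sort, averaged 10.76 and 10.80. The part of cell composition in the signals of the oxidase genes was not tested.

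**Figure D4:**
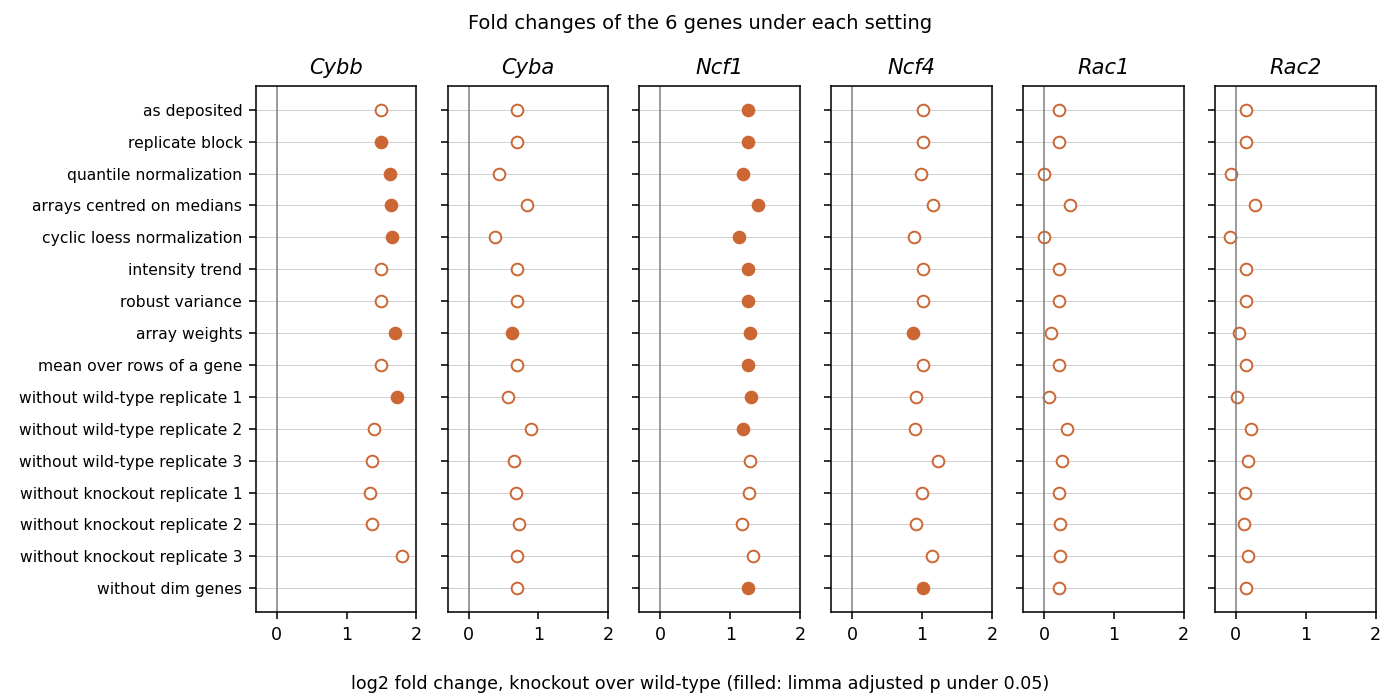
Log2 fold change of each oxidase gene, knockout over wild-type, with the values as deposited and under each of 15 alternative settings (rows), filled where the limma adjusted p was under 0.05; Cybb has no point where dim genes were left out. Ncf1 is filled in most rows, Cybb in 6 of its 14 alternatives, and Rac1 and Rac2 stay near 0 and are never filled.

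The calls among the members depended on the setting more than their order did. The 4 dedicated subunits had positive log2 fold changes in every setting in which they were tested, while Rac1 and Rac2 reached at most 0.37 and 0.28. The number of the 6 genes past the threshold was 1 as deposited, 2 with the replicate block, where 1.87% of all genes passed in either direction, and 4 with array weights, where 8.02% did. It was also 2 under quantile normalization (0.522% of all genes), with arrays centred on their medians (0.963%), under cyclic loess normalization (1.1%), without dim genes (5.27%) and without wild-type replicate 1 (4.66%). It was 0 without wild-type replicate 3 (0.13% of all genes) and without knockout replicates 1 (0.11%), 2 (0.105%) or 3 (0.145%).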

How the data were processed

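Cells of 6 mice were sorted into lysis buffer, and RNA was extracted and amplified with a whole-transcriptome kit for small amounts, per the labels' protocols. The authors deposited 1 table of log2 values for the 6 arrays, and RMA, Affymetrix Expression Console and Partek are named in the submitters' processing notes. Whether all arrays were normalized together is not given there. Of 35557 rows, 21789 have 1 gene symbol in the platform annotation, that of the Gene 1.0 ST array, although the series' design text names the Exon 1.0 ST array; which holds was not settled here. Of several rows per gene the one with the highest mean was kept, which left 19938 genes. The sample titles give group and replicate number.

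The groups were compared in limma 3.58.1 under R 4.3.3, with group as the one term, two-sided, with Benjamini-Hochberg adjustment over all genes at 0.05; the script was tested on simulated data. Fold changes are on the log2 scale. Single differences within arrays were tested by exact permutation. Same-numbered arrays deviated together (r = 0.368, 0.119 and 0.162, all above 0.1), so the number was treated as a pairing and used as a block in an alternative. The labels do not say what a number marks, and some arrays of different number deviated together as much (wild-type 2 with knockout 3, r = 0.195; wild-type 3 with knockout 2, r = 0.183), so the evidence for the pairing is weak. Other alternatives were 3 normalizations, a filter on dim genes, an intensity trend, robust variance, array weights, the mean over rows and leaving out each array. The genes named are the 6 subunits, the up to 4 members of each pathway list past the threshold with the smallest p (or the 2 with the smallest p where none passed), and the 3 genes nearest to Cybb and to Rac2, without predicted, olfactory, vomeronasal and small RNA genes; markers are named where a result turns on them. Some genes and 1 gene list are not reported here. Members, lists and tests were chosen with earlier results of these data known.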

Additional observations from a re-analysis of the deposited data

How the results depend on the processing

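Over all genes 163 passed as deposited (137 higher, 26 lower), 372 with the replicate block, 104 under quantile normalization, 525 without dim genes (of those left), 1599 with array weights and 21 to 929 with 1 array left out, the most without wild-type replicate 1. Centring arrays on their medians gave 186 higher and 6 lower and adds 0.146 to each gene's log2 fold change, and cyclic loess gave 149 higher and 70 lower. Of the oxidase genes 2 passed with the replicate block, under quantile or cyclic loess normalization, with centred arrays or without dim genes, 4 with array weights, and 0 to 2 with 1 array left out. Their median log2 fold change of 0.86 became 0.71 under quantile normalization, 1.00 with centred arrays, 0.63 under cyclic loess, and 0.70 without dim genes, which removed Cybb. It ran from 0.74 to 0.94 with 1 array left out.

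Cybb passed with the replicate block (1.50), quantile normalization (1.62), centred arrays (1.64), cyclic loess (1.65) and array weights (1.70), and ran from 1.34 to 1.79 with 1 array left out. Cyba passed with array weights (0.62), and Ncf4 with array weights (0.87) and without dim genes (1.02). Ncf1 ran from 1.17 to 1.33 with 1 array left out. Rac1 reversed under cyclic loess (-0.0048), and Rac2 under quantile (-0.07) and cyclic loess normalization (-0.09). The replicate block changed no call of another oxidase gene. Of the 72 other pathway genes 3 passed as deposited (0.818% of all genes), 5 with the replicate block (1.87%) and 11 with array weights (8.02%). With 1 array left out 0 to 7 passed, where 0.105% to 4.66% of all genes did. Without dim genes 6 of those left passed, where 5.27% of all genes left did. Cybb minus Cyba ran from 0.50 to 1.27 and Rac2 minus Rac1 from -0.12 to -0.04 over 10 alternatives each. Why counts differ between settings was not tested, beyond the fewer arrays or genes in some of them. Detection calls were not used, which limits the reading of dim genes.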
